A study of Mus musculus with 26 samples.

Results

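The libraries described here are the 14 libraries of immunopurified RNA from mice that went through withdrawal, out of 26 libraries in the series, and the contrast is between the 2 library sets in which they were made. Set 2 holds 8 of them, numbered 1836 to 1843 in the titles: 5 from mice that took cocaine without escalating their intake, called nonescalating, and 3 from mice that took saline. Set 1 holds 6, numbered 1817 to 1821 and 1823, with 3 nonescalating and 3 saline libraries. Replicate numbers below are those of the titles, and run from 1 within each agent and set. All mice were adults on a mixed FVB/N-Swiss Webster background crossed for at least 9 generations to C57BL/6, had long access to intravenous self-administration, and carried the Drd2-TRAP transgene of line CP101. The tissue was the accumbens nucleus. The labels give no sex or age, and when and how each set was prepared is not given in the sources used here. The question was which RNA, and so which cell types, differed between the sets within the same pair of treatments; it is a technical contrast, with the agent as a term in the fit.

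In TRAP (translating ribosome affinity purification), a transgene puts EGFP on the ribosomal protein L10a in one kind of cell, here cells that use the Drd2 promoter, and an antibody against EGFP pulls down their ribosomes with the RNA being translated. In the accumbens, Drd2 is used mainly by the medium spiny neurons of the indirect pathway, which also make enkephalin and the adenosine receptor Adora2a, and by cholinergic interneurons. RNA of cells without the tag, such as vessel wall cells, glia and other neurons, can reach such libraries as carry-over or through use of the transgene in those cells. Brain capillaries are built of endothelial cells, which carry the transporters of the blood-brain barrier, wrapped by pericytes, with smooth muscle around arterioles and a basement membrane between them.

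The sets differed in depth: counts in genes per library were 2.51 ± 0.642 M in set 2 (SD, n = 8; M for 1e6) and 8.13 ± 4.49 M in set 1 (SD, n = 6), a difference of -5.62 M (two-sided exact permutation of the sets within agent, p = 0.00268, adjusted over 8 library measures p = 0.0214). Records with several alignments made up 33.7 ± 7.78% of all counted records of a set 2 library and 23.6 ± 9.33% of a set 1 library (adjusted exact p = 0.0929). Pearson's r of log2 CPM (counts per M, with TMM factors) had a median of 0.778 over 43 pairs of libraries within a set and 0.771 over 48 pairs between sets. The lowest median correlations with the other 13 libraries were those of nonescalating replicate 5 of set 2 (0.688), and of saline replicate 1 (0.665) and nonescalating replicate 1 (0.706) of set 1. Nothing in the labels says that libraries came from separate animals, so p-values measure the spread between libraries, which may be technical. The tagged protein's own gene, Rpl10a, which the transgene also encodes, was at 290 ± 57 CPM in set 2 and 322 ± 71.8 CPM in set 1 (adjusted p = 0.775).

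Among 12316 genes with enough counts, 351 passed edgeR's quasi-likelihood test at an adjusted p of 0.05 (2.85%): 131 were higher in set 2 (1.06%) and 220 were lower (1.79%). On the log2 scale, 92 of the 131 higher genes and 214 of the 220 lower genes differed by at least 1. The median log2 fold change of all genes tested, set 2 over set 1, was -0.03. In 90 genes (0.731%) every set 2 library lay above every set 1 library, and in 77 (0.625%) every set 2 library lay below. Both counts were lowest without nonescalating replicate 1 of set 1 (28 higher, 63 lower) and highest without saline replicate 2 of set 1 (183 higher, 299 lower). Without the 3 libraries of low correlation the same test called 29 genes higher and 53 lower, and 71 of these 82 were among the 351; this alternative was chosen after seeing the data.

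Vessel wall genes were the clearest group. All 16 endothelial genes tested were lower in set 2 by their fold change and 12 passed the test, with a median log2 fold change of -2.17. Of 14 pericyte and smooth muscle genes tested, all had negative fold changes, 6 passed, and the median was -1.92. The lists together gave 18 called lower of 30 genes (60%), against 1.79% of all genes tested, and none higher. These 18 were 8.18% of the genes called lower. The count was 11 of 30 without nonescalating replicate 1 of set 1, and 8 of 30 (4 endothelial) without the 3 libraries of low correlation, where the endothelial median was -1.42 and the pericyte and smooth muscle median -1.59.

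The summed level of the endothelial list ran from 714 to 2640 CPM in set 2, with a median of 1040, and from 1920 to 9300 CPM in set 1, with a median of 4180. The sets overlapped in part: nonescalating replicate 2, the highest of set 2, lay above saline replicates 2 (1920 CPM) and 3 (2520 CPM) of set 1. The pericyte and smooth muscle list summed to between 188 and 844 CPM in set 2 (median 436) and between 1480 and 5130 CPM in set 1 (median 2610), with no overlap. Within set 1 the sums were uneven, and saline replicate 1 (8610 endothelial CPM) and nonescalating replicate 1 (9300 endothelial CPM) stood well above the other 4 libraries, which held 1920 to 4950 CPM. The 10 immunopurified set 1 libraries outside withdrawal covered 1710 to 9850 endothelial CPM, the range of set 1. In the 2 total RNA input libraries, both of set 1, the endothelial sum was 778 CPM (saline) and 520 CPM (nonescalating), lower than in all 16 immunopurified set 1 libraries, and 1 set 2 library, saline replicate 1 at 714 CPM, lay between the inputs. Fewer vessel cells, less RNA per vessel cell, less carry-over and less use of the transgene in vessel cells cannot be told apart in such libraries.

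**Figure D1:**
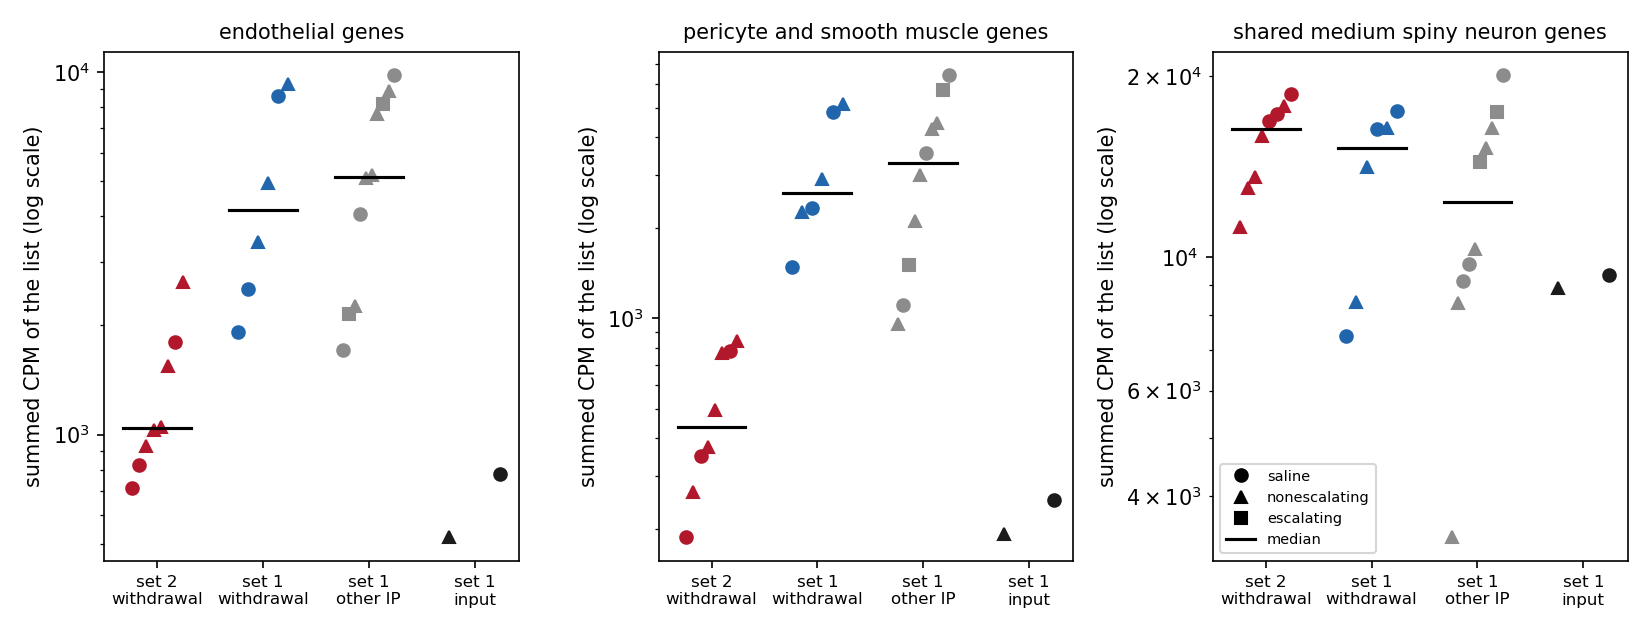
Summed CPM of 3 gene lists in each library (log axes), with set 2 withdrawal, set 1 withdrawal, the other immunopurified (IP) set 1 libraries and the set 1 inputs from left to right, and a line at the median. Pericyte and smooth muscle sums of set 2 stay at or below 844 CPM and those of set 1 withdrawal start at 1480 CPM, whereas the sums of genes shared by medium spiny neurons overlap.

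Rgs5, a regulator of G protein signalling that marks brain pericytes, had the smallest p of the lists. Its levels ran from 46.8 to 304 CPM in set 2, with a median of 111, and from 820 to 2920 CPM in set 1, with a median of 1530. The lowest set 1 library thus held more than the highest set 2 library, and the log2 fold change was -3.61 ± 0.40 (SE; adjusted p = 4.96e-05). The rule for named genes gives 3 further mural genes that passed: Cspg4 (NG2 proteoglycan, at -2.71), Vtn (vitronectin, at -2.77; adjusted p = 0.0542 without nonescalating replicate 1 of set 1) and Mylk (myosin light chain kinase, at -1.67). Mylk averaged 49.9 ± 22.3 CPM in set 2 and 159 ± 28 CPM in set 1 (adjusted p = 0.00365), again without overlap. The contractile genes Acta2 (-1.52, adjusted p = 0.497), Myh11 (-1.28, 0.245) and Tagln (-0.27, 0.929) did not pass.

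Flt1, the VEGF receptor 1 of endothelial cells, was at 130 to 472 CPM in set 2 (median 231) and at 279 to 2170 CPM in set 1 (median 930). Only saline replicate 2 of set 1, at 279 CPM, fell inside the set 2 range, and the log2 fold change was -2.17 ± 0.38 (SE; adjusted p = 0.0042). Its sister receptor Kdr averaged 22.5 ± 17.5 CPM in set 2 and 123 ± 78.8 CPM in set 1 (-2.61, adjusted p = 0.0042). Of the carriers and pumps on the list, Slc7a5, a carrier of large neutral amino acids, fell by 2.66 on the log2 scale, Slc2a1, the glucose carrier GLUT1, by 2.01 and Abcb1a, the efflux pump P-glycoprotein, by 1.79, while Slco1a4, an organic anion carrier, had -1.66 and did not pass (adjusted p = 0.173). Bsg (basigin), which other cells also express, averaged 276 ± 46.4 CPM in set 2 and 813 ± 381 CPM in set 1, with no overlap (adjusted p = 0.000967). Cldn5, the tight junction claudin of endothelium, had 9.52 ± 11.1 CPM in set 2 and 39.2 ± 25.9 CPM in set 1, a log2 fold change of -1.97 that did not pass (adjusted p = 0.141).

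**Figure D2:**
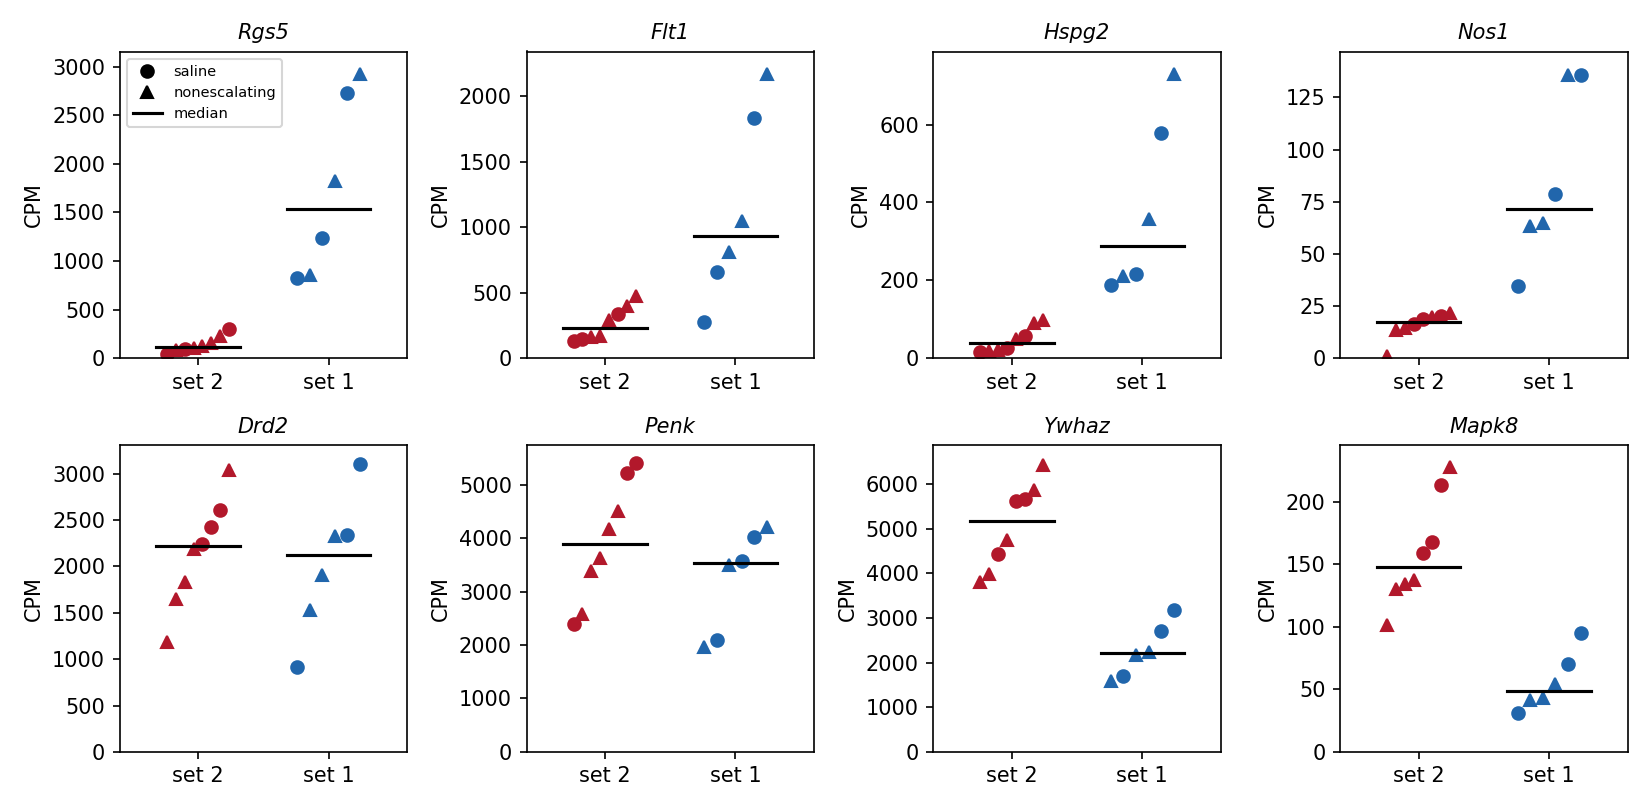
CPM of 8 genes in each library, set 2 left and set 1 right, with a line at the median of each set. Rgs5, Hspg2 and Nos1 are lower in every set 2 library, Ywhaz and Mapk8 are higher in every set 2 library, and Drd2 and Penk overlap.

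Outside the lists, 195 of the 220 lower genes remained. Hspg2 encodes perlecan, a proteoglycan of basement membranes, and was at 16.1 to 96.8 CPM in set 2 (median 37.7) and 188 to 729 CPM in set 1 (median 287), a log2 fold change of -3.12 (adjusted p = 0.000559). Ltbp4 (a binding protein of latent TGF-beta, at -2.86), Pltp (phospholipid transfer protein, at -2.56), Myh9 (a non-muscle myosin heavy chain, at -2.04) and Ptn (the secreted growth factor pleiotrophin, at -1.59) also fell. Chosen after their values were seen, further called genes known from vessels were Vwf, the von Willebrand factor of endothelium, at 90 ± 57.8 CPM in set 2 and 417 ± 126 CPM in set 1 (-2.26), and Robo4, Tie1 and Eng, endothelial surface proteins, at -2.70, -2.43 and -2.27.

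Fibroblast, immune and glial lists followed in part. Of all genes tested, 1.79% were called lower. All 8 fibroblast and meningeal genes tested had negative fold changes (median -1.88), but only Igf2 passed, with 43.9 ± 25.5 CPM in set 2 and 142 ± 84.9 CPM in set 1 (adjusted p = 0.0407). All 13 MHC class I and interferon genes were negative by their fold change (median -1.71); only H2-D1, an MHC class I heavy chain, passed (-2.32, adjusted p = 0.0225), and its reads are hard to separate from those of its close relatives. Summed, the MHC list covered 113 to 472 CPM in set 2 and 164 to 1450 CPM in set 1. Endothelial and mural levels moved with both lists, and their part in these differences was not tested. The Igf2 call held in 3 of 14 fits that left out 1 library, and H2-D1 did not pass without saline replicate 1 (adjusted p = 0.077) or nonescalating replicate 1 (0.0906) of set 1.

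Of 12 astrocyte genes tested, 11 did not pass, 8 had negative fold changes and the list median was -0.73. With 2.85% of all genes tested called, glial lists this short would hold few calls in any case. The astrocyte water channel Aqp4, 1 of the 4 with positive fold changes, was at 19.3 ± 18 CPM in set 2 and 11.2 ± 7.11 CPM in set 1 (adjusted p = 0.661). None of 13 oligodendrocyte genes passed: the myelin gene Mbp had 126 ± 57.6 CPM in set 2 and 178 ± 52.6 CPM in set 1 (adjusted p = 0.353), and the median was -0.23. The list of oligodendrocyte precursors summed to 167 to 281 CPM in set 2 (median 217) and 347 to 600 CPM in set 1 (median 421), without overlap. Only Cspg4, which is also on the pericyte list, passed among its 9 genes, at 26.9 ± 20.6 CPM in set 2 and 179 ± 91.6 CPM in set 1. Much of the gap between the sums thus lay in Cspg4. The list median was -0.55, and 8 of the 9 had negative fold changes. Among the genes that did not pass, Gpr17, a receptor of committed precursors, had -2.10, the transcription factor Olig2 -1.25, its relative Olig1 -0.14 and the growth factor receptor Pdgfra -0.11. Of 15 microglial genes, 12 had too few counts to be tested, among them Cx3cr1, at 0 to 3.02 CPM in set 2 and 0 to 3.01 CPM in set 1. The other 3, Csf1r, Ctss and Itgam, averaged 4.84, 5.64 and 6.92 CPM in set 2 and 13.9, 1.95 and 5.47 CPM in set 1 and did not pass.

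No gene on the lists of medium spiny neurons passed the test. With 2.85% of all genes tested called, lists this short would hold few calls in any case. None of 12 genes of D2 medium spiny neurons, 18 genes shared by medium spiny neurons and 10 genes of D1 medium spiny neurons passed the test, with list medians of 0.01, 0.32 and 0.48. Drd2 was at 1180 to 3040 CPM in set 2 (median 2220) and 920 to 3100 CPM in set 1 (median 2120), an almost complete overlap (log2 fold change 0.10 ± 0.24, adjusted p = 0.871). Penk, the enkephalin precursor, averaged 3910 ± 1120 CPM in set 2 and 3230 ± 967 CPM in set 1 (adjusted p = 0.554), and Adora2a 443 ± 165 CPM in set 2 and 626 ± 191 CPM in set 1 (adjusted p = 0.312). Among the shared genes, Meis2, a homeobox factor, came nearest to the threshold with 880 CPM in set 2 and 559 CPM in set 1 (0.70, adjusted p = 0.0546), and 14 of the 18 were positive, against 48.5% of all genes tested. The D1 receptor gene Drd1 was low in both sets, at 43.2 ± 33.6 CPM in set 2 and 34.5 ± 17.2 CPM in set 1 (adjusted p = 0.844).

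Other neurons gave few calls, as lists this short would in any case with 2.85% of all genes tested called. Cholinergic interneuron genes passed in 0 of 7 cases, with Chat, which makes acetylcholine, at 14.4 ± 15.9 CPM in set 2 and 10.8 ± 10.4 CPM in set 1 (adjusted p = 0.864). Slc17a7, the vesicular glutamate transporter of cortical inputs, was at 23.2 ± 27.8 CPM in set 2 and 10.9 ± 8.2 CPM in set 1 (adjusted p = 0.691), and none of 8 excitatory neuron genes passed. GABA interneuron genes summed to 59.5 to 150 CPM in set 2 and 141 to 346 CPM in set 1. The list median was -0.24, with 6 negative and 2 positive fold changes. Of the 8 tested, 1 passed: Nos1, the neuronal nitric oxide synthase of a small interneuron class, ran from 0.815 to 21.5 CPM in set 2 (median 17.5) and from 34.6 to 136 CPM in set 1 (median 71.8). The sets did not overlap, and the log2 fold change was -2.42 ± 0.45 (SE; adjusted p = 0.00524). Sst, the somatostatin gene that such cells share, averaged 28.2 CPM in set 2 and 57.8 CPM in set 1 (-1.05, adjusted p = 0.313). Much of the gap between the sums lay in Nos1 and Sst, the lowest of the list by fold change. The other genes tested ran from -0.47 (Elfn1) to 0.86 (Crtac1). Abat, which breaks down GABA and is not on a list, was lower in every set 2 library, at 48.1 to 178 CPM in set 2 and 282 to 608 CPM in set 1 (-2.10 ± 0.26, adjusted p = 8.88e-05).

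**Figure D3:**
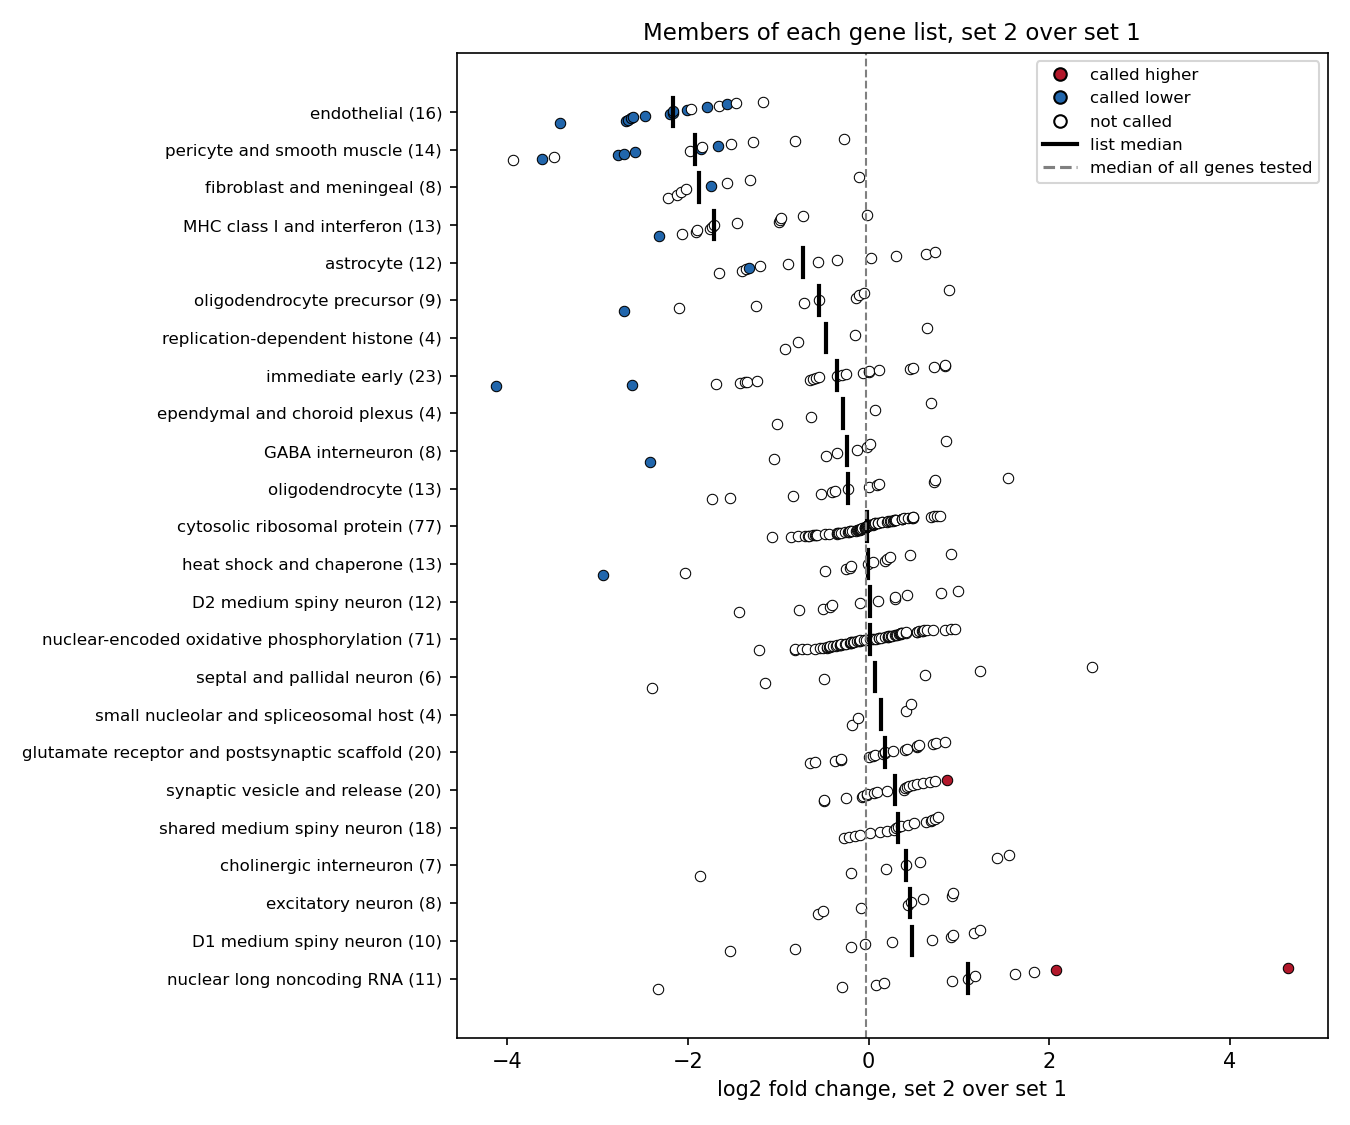
Log2 fold change of each tested gene, set 2 over set 1, by gene list (lists with at least 4 tested genes, the number in brackets); filled points passed the test, thick lines are list medians and the dashed line is the median of all genes tested (-0.03). The endothelial list lies wholly below 0 with a median of -2.17, and the D2 medium spiny neuron list is centred at 0.01.

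Lists of RNA classes and cell functions added single calls. None of 77 cytosolic ribosomal protein genes (median -0.02), 71 oxidative phosphorylation genes (median 0.02) or 20 glutamate receptor and scaffold genes (median 0.18) passed. Of all genes tested, 2.85% passed. In the list of nuclear long noncoding RNAs, 2 of 11 were higher, against 1.06% of all genes tested. The median was 1.10, but it was -0.24 in saline libraries alone and 1.77 in nonescalating libraries alone, and Neat1, which builds nuclear paraspeckles, had -2.33 and did not pass (adjusted p = 0.0824). Snhg14, an imprinted host transcript, had 73.6 ± 44.1 CPM in set 2 and 16.9 ± 7.82 CPM in set 1 (2.07, adjusted p = 0.0215), while Malat1 was at 18000 ± 10600 CPM in set 2 and 19100 ± 7870 CPM in set 1 (adjusted p = 0.697). The other was Xist, the RNA of the inactive X chromosome, at 1.09 to 151 CPM in set 2 and 0 to 3.03 CPM in set 1; the value of 151 is saline replicate 2, without which Xist did not pass (3.30, adjusted p = 0.146). Ddx3y, a Y-linked gene, was present in all 14 libraries, at 18.3 to 53.3 CPM. Snhg14 did not pass without nonescalating replicate 1 (adjusted p = 0.096), 2 (0.0589) or 4 (0.0676) of set 1, nor Xist without nonescalating replicate 1 of set 1 (0.0542).

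Immediate early genes, which neurons switch on with activity, had a median of -0.35. Of 23 tested, 2 were lower, against 1.79% of all genes tested. Nr4a3, an orphan nuclear receptor, had 0.986 ± 0.96 CPM in set 2 and 16.4 ± 8.97 CPM in set 1 (-4.12, adjusted p = 0.0105). Its set 2 level is near the floor, as 3 counts are 0.884 to 1.96 CPM in a set 2 library. Klf4, a zinc finger factor that endothelial cells also use, had 9.55 ± 9.5 CPM in set 2 and 53.4 ± 29.4 CPM in set 1 (-2.62, adjusted p = 0.00801). Egr1, at 378 CPM in set 2 and 379 CPM in set 1, and Arc, at 21.8 CPM in set 2 and 27.7 CPM in set 1, did not pass (adjusted p = 0.998 and 0.785). Among heat shock genes, the co-chaperone Bag3 was lower (-2.94, adjusted p = 0.0172; 0.0697 without nonescalating replicate 1 of set 1), 1 of 13. Of 20 synaptic vesicle genes, 1 was higher, against 1.06% of all genes tested. This was Pclo, a scaffold of the active zone, with 1850 ± 422 CPM in set 2 and 1030 ± 350 CPM in set 1 (0.87, adjusted p = 0.0405). It passed in 6 of the 14 fits without 1 library.

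Of the 131 genes higher in set 2, 128 were on no list. Ywhaz, the 14-3-3 zeta adaptor, was at 3800 to 6430 CPM in set 2 (median 5180) and 1600 to 3190 CPM in set 1 (median 2210), without overlap (1.19, adjusted p = 0.00215). Tcf20, a transcriptional coregulator, averaged 593 ± 121 CPM in set 2 and 168 ± 44.2 CPM in set 1 (1.84, adjusted p = 4.96e-05). Mapk8, the stress kinase JNK1, averaged 159 ± 43.3 CPM in set 2 and 56 ± 23.4 CPM in set 1 (1.56, adjusted p = 0.0042). The rule named 5 more of this kind: Neto2, an auxiliary subunit of kainate receptors (1.40), Stxbp5l, the vesicle protein tomosyn-2 (1.33), Pgm2l1, a sugar bisphosphate synthase (1.25), Rab2a, a GTPase of early secretion (1.17), and Rnf150, a RING finger protein (1.01). Called as well, and picked after their values were seen, were Mapk9 (0.89), a kinase of the JNK family, the calcineurin subunits Ppp3ca (0.82) and Ppp3r1 (0.94), and the GABA-A receptor subunit Gabrb2 (1.02).

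Some genes were present in a single set and all but absent from the other. Adnp, a homeobox transcription factor (mm10 chromosome 2, 168180986 to 168207112, minus strand, in GENCODE M21), gathered 4968 counts in set 2, at 171 to 381 CPM, and 8 counts in the 6 set 1 libraries, at 0 to 0.621 CPM. Zfp36, the mRNA decay factor tristetraprolin (chromosome 7, 28376784 to 28380253, minus strand), had 2.05 to 35.6 CPM in set 2 and 0 counts in set 1, which at a floor of 3 counts over the 6 set 1 libraries (0.0602 CPM) makes it at least 239-fold higher. The transcript listed as mKIAA0217 had 13.5 to 104 CPM in set 2 and 0 counts in set 1, at least 761-fold higher. AK038985, a clone name, had 0.566 to 25.5 CPM in set 2 and 0 counts in set 1, at least 152-fold higher. These 3 were at 0 in the other 10 immunopurified set 1 libraries and in both inputs too, and Adnp was at 0 to 1.29 CPM in the 10 and at 0 and 0.0556 CPM in the inputs. The floors cover counting error only.

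The reverse pattern was seen for Apex1, an enzyme of base excision repair (chromosome 14, 50924968 to 50927139, plus strand), with 6 counts over set 2, at 0 to 0.905 CPM, and 1672 counts over set 1, at 9.01 to 57.4 CPM. It was present in all 10 other immunopurified set 1 libraries (6.22 to 44.8 CPM) and in both inputs (53.6 and 23.5 CPM). Ubb, a polyubiquitin gene built of near-identical repeats, had 1.70 to 10.9 CPM in set 2 and 75.5 to 165 CPM in set 1. Scarb2, a lysosomal membrane protein, had 3.52 to 39.9 CPM in set 2 and 66.4 to 137 CPM in set 1, and Acvr2b, an activin receptor picked after its values were seen, 0 to 29.3 CPM in set 2 and 76.2 to 216 CPM in set 1. In all, 24 called genes differed by at least 4 on the log2 scale, a limit also set after seeing the values: 7 higher and 17 lower. Among the 17, Scarf1, Mall, Gatsl3, Slc38a5, H2-Q7, Tinagl1 and Rnf125 were at or below 0.401 CPM in both inputs.

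**Figure D4:**
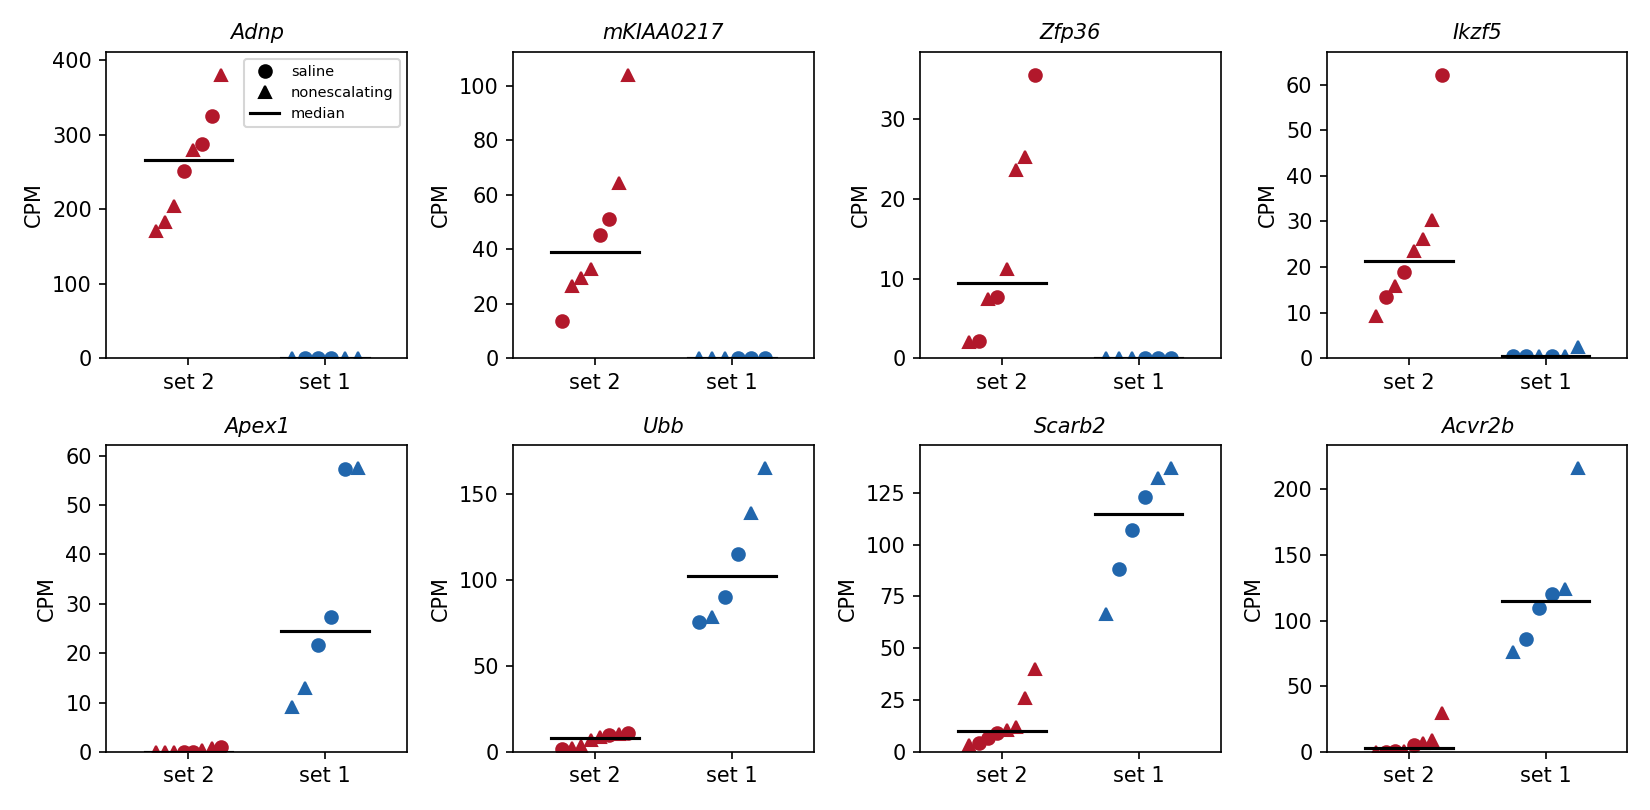
CPM of 8 genes with counts mainly in 1 set, set 2 left and set 1 right, in each of the 14 libraries with a line at the median. Adnp, mKIAA0217, Zfp36 and Ikzf5 are near or at 0 in set 1, and Apex1, Ubb, Scarb2 and Acvr2b are lowest in set 2.

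The gene names in the files differ between the sets as well. A set 2 file has 32531 names and a set 1 file 32657, of which 31735 are shared, 796 belong to set 2 and 922 to set 1. Of the unshared names, 242 pairs could be joined as 1 gene through RefSeq symbols and synonyms (GRCm38.p6), and set 1 carried the RefSeq symbol in 235 of them. After joining, 100 such genes were tested and 1 passed, Smim10l1, higher in set 2 (1.40, adjusted p = 0.0123). In GENCODE M21, Adnp overlaps the protein-coding model Gm20716 on its own strand, Apex1 overlaps Pip4p1 on the other strand, and Ikzf5 (25 ± 16.6 CPM in set 2, 0.795 ± 0.831 CPM in set 1) overlaps Pstk and Fgfr2. The strand setting of the counting is not given in the sources used here, so reads of overlapping genes cannot be told apart, and the part of differing gene models in these differences was not tested.

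Fold changes also followed base composition. With 11151 protein-coding genes in 5 equal bins of transcript GC content, the median log2 fold change was 0.39 in the lowest bin (33.8 to 44.5% GC), then 0.20, 0.00 and -0.25, and -0.49 in the highest (56 to 72.9% GC). Of the genes called higher, 68 fell in the lowest bin and 3 in the highest. Of those called lower, 8 fell in the lowest and 92 in the highest. Pearson's r across genes was -0.36 and Spearman's rho -0.42, a description over genes that share libraries. Genes called higher had a median GC content of 43.7% and a median 3'UTR of 3080 bases, genes called lower 55% and 1020 bases, and all 11151 genes 50.2% and 1110 bases. Level went with fold change too: in 5 bins of mean log2 CPM, the median was -0.31 in the lowest and 0.18 in the highest. That highest bin held 89 of the 117 genes called higher and 70 of the 214 called lower.

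The tilt with GC content separated the sets library by library. For each library the median deviation of log2 CPM from the 14-library mean was taken in the highest GC bin minus the lowest, a measure chosen after the fold changes were seen. The tilt ran from -1.29 to -0.13 in set 2 (median -0.30) and from 0.37 to 1.16 in set 1 (median 0.47), so every set 2 library was negative and every set 1 library positive. The difference in means was -0.96 (two-sided exact permutation within agent, p = 0.000893, the smallest that the 1120 arrangements allow, adjusted over 3 tilts p = 0.00134). The other 10 immunopurified set 1 libraries had 0.32 to 0.99, and the inputs -0.10 and 0.04. The 3'UTR length gave a smaller difference of 0.42 (adjusted exact p = 0.00714). These same libraries gave the fold changes that led to the measure, so the p-values of the tilts are descriptive. The median GC content was 50.1% in the endothelial list and 53.4% in the pericyte and smooth muscle list, and their median fold change relative to genes of the same GC bin was -2.16 and -1.89. With the trend on GC content and length removed in a limma-trend fit, 142 genes were higher and 109 lower, against 183 and 298 with the same tool before removal, and 15 of the 30 vessel genes were called lower. Bsg did not pass in that fit (adjusted p = 0.0883) and neither did Igf2 (0.18).

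**Figure D5:**
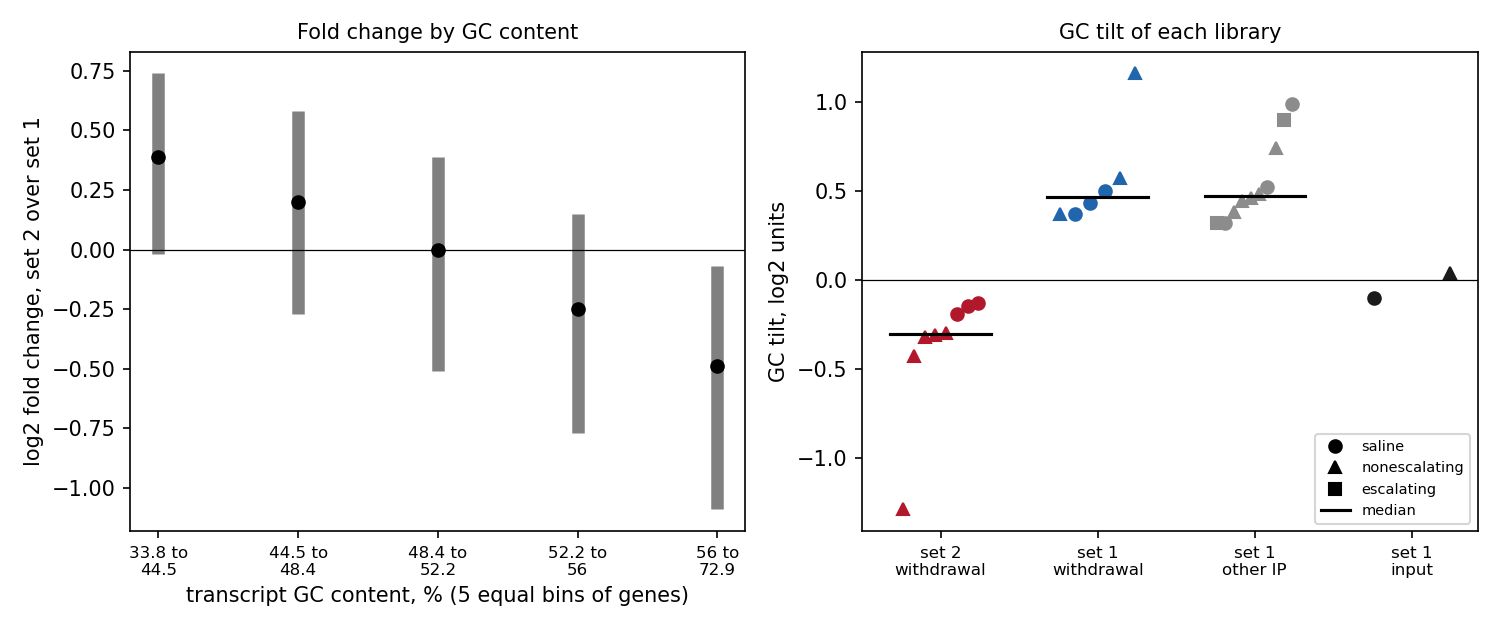
Left, log2 fold change (set 2 over set 1) by 5 equal bins of transcript GC content, with points at medians and bars over the quartiles. Right, GC tilt of each library (median log2 deviation of the highest minus the lowest GC bin), which is -0.13 or lower in all set 2 libraries and 0.37 or higher in all set 1 withdrawal libraries.

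The set difference was compared between the agents. No gene of 13609 passed edgeR's test of the interaction between set and agent (0%; smallest adjusted p 1, with 617 genes at an unadjusted p under 0.05), and DESeq2 called 18. Within nonescalating libraries alone (5 in set 2, 3 in set 1) 20 genes were higher and 52 lower, 8 of them vessel genes. Within saline libraries alone (3 in each set) 1 gene was higher and 1 lower. The median of the endothelial list was -2.23 in nonescalating and -2.06 in saline libraries, and that of the pericyte and smooth muscle list was -1.83 in nonescalating and -2.27 in saline libraries. Rgs5 had -3.76 in nonescalating libraries (adjusted p = 0.000151) and -3.45 in saline libraries (0.151).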

How the data were processed

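RNA was measured by RNA-seq, and the authors deposited raw counts of reads per gene symbol for each library, as whole numbers without normalization. Reads were aligned to mm10, with STAR 2.0.0e and HTSeq among the tools, per the submitters' processing notes. Which annotation, HTSeq version and strand option were used is not given in the sources used here. Summary lines of HTSeq (5 in each file) and a line called unknown, which never exceeds 1 count, did not enter library sizes or tests. Only genes listed in both sets were used, except in the fit with joined names.

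Tests used R 4.3.3 with edgeR 4.0.16 (quasi-likelihood with robust estimation, filterByExpr at a minimum count of 10, TMM factors, terms for agent and set), Benjamini-Hochberg adjustment over all genes and a threshold of 0.05; limma 3.58.1 and DESeq2 1.42.0 served as alternatives. Standard errors (SE) come from the fold change and its F statistic, and adjusted p-values are edgeR's unless another tool is named. List sums use TMM factors of all 26 libraries; other CPM values use those of the 14. At 3 counts, a library's floor is 0.212 to 1.96 CPM. Counts in genes ran from 1.53 to 14.2 M per library. Over 19 pairs of libraries of 1 agent and set, chi-square per degree of freedom was at least 19, so none of these pairs holds the same counts. Pairs between the sets were not checked in this way. The check cannot tell whether libraries were made from the same RNA. GC content and lengths come from GENCODE M21, with a symbol match for 93.1% of the genes tested and 95.7% of those called. The edgeR fit was tested on simulated data. Some genes that the rule or the lists would name are not reported here.

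Members and lists were chosen with earlier results of these data known. Named genes are the 12 with the smallest p in each direction (mean log2 CPM of at least 2, no predicted symbol), up to 4 called members of each list, and Drd2, Adora2a, Penk, Drd1, Chat, Malat1, Mbp, Aqp4, Cldn5, Cx3cr1, Slc17a7 and Rpl10a; others are said to have been chosen after their values were seen, and further list members were picked after seeing values, as defining genes of a cell type or as examples that did not pass. Lists without a called gene and not described above were ependymal (4 genes, median -0.28), red blood cell (2, -1.16), septal and pallidal neurons (6, 0.07), histones (4, -0.47), small nucleolar hosts (4, 0.14) and microglia (3, 0.33).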

Additional observations from a re-analysis of the deposited data

Results flagged for a closer look

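In 75 checks of a single library standing apart from its group, 7 values stood apart. All concern the nonescalating libraries of set 2, the only group here with more than 3 libraries, and chance alone gives about 1 such value in 20 checks. Replicate 5 of that group had a GC tilt of -1.29, with the next at -0.43, Mapk8 at 228 CPM (next 137) and a microglial sum of 171 CPM (next 56.3). Replicate 2 had a red blood cell sum of 16.4 CPM (next 7.29). Replicate 1 had Mylk at 96.5 CPM (next 50.3). Replicate 3 had a D1 medium spiny neuron sum of 500 CPM (next 264) and a septal and pallidal neuron sum of 405 CPM (next 180).

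Apart from the pairs of names joined as 1 gene, genes listed in a single set entered no comparison and still held counts. All names of a single set, joined or not, took a median of 0.798% of the gene counts in set 2 (0.672 to 0.867%) and 0.758% in set 1 (0.723 to 0.925%).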

How the results depend on the processing

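Against 131 genes higher and 220 lower, DESeq2 called 358 and 622, limma voom 213 and 362, all 24 immunopurified libraries fitted together 25 and 120, nonescalating libraries alone 20 and 52, and saline libraries alone 1 and 1. A covariate of the share of records in no feature gave 205 higher, and limma-trend with the GC and length trend removed, on 11151 genes, 109 lower and 142 higher (56.6% of its calls), against 298 lower and 183 higher with that tool before removal. With all 24 libraries 17.2% of calls were higher, against 37.3%. DESeq2 called 18 genes for the interaction. Leaving out 1 library gave 28 to 183 genes higher and 63 to 299 lower, the lowest without nonescalating replicate 1 and the highest without saline replicate 2, both of set 1; without nonescalating replicate 1 of set 1, 11 vessel genes were called against 18. Both counts fell by over 1.5 times without saline replicates 1 and 3 (75 and 125, 68 and 140) or nonescalating replicate 4 (64 and 128) of set 2, and without saline replicate 1 of set 1 (61 and 102). Higher calls alone did so without saline replicate 2 (86) and nonescalating replicate 3 (83) of set 2 and nonescalating replicates 2 (78) and 4 (61) of set 1. Of 39 named genes called, 32 passed in all 14 such fits, 31 without the 3 libraries of low correlation (29 higher and 53 lower in all, chosen after seeing the data), and all 39 with DESeq2.

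Replicate numbers did not pair the libraries: deviations of same-numbered libraries correlated at -0.20 to 0.09 over 6 pairs. A replicate block gave 39 higher and 91 lower, 117 of them among the 351.

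A covariate of the vessel lists, chosen after seeing the data and built from the genes it adjusts, left 10 higher and 17 lower and no vessel gene. The log2 fold change then turned to 0.17 for Flt1, 0.45 for Igf2 and -0.12 for Pclo. Among the lists of cell types, medians moved to 0.21 (endothelial), -0.52 (pericyte and smooth muscle), 0.36 (fibroblast), -0.14 (astrocyte), -0.68 (D2 medium spiny neuron), -0.43 (shared medium spiny neuron), -2.26 (GABA interneuron) and -0.74 (excitatory neuron). Elsewhere the shared medium spiny neuron median moved to 0.69 with the GC trend removed, and the astrocyte median to -0.33 in nonescalating libraries. The septal and pallidal median, from 6 genes, was 0.89 with no filter, -0.82 in saline and 0.83 in nonescalating libraries, 0.90 with all 24, and -0.84 (without nonescalating replicate 2 of set 2) to 0.58 when 1 library was left out. Over 32 alternatives the MHC class I and interferon median ran from -2.04 to 1.52. Only the fit at 1.52 moved by more than the list's SD within a set (1.14), and leaving out 1 library gave -2.04 to -1.16. The causes of these moves were not tested. Depth limits set 2, where 3 counts are 0.884 to 1.96 CPM in a library.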

Other observations

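Some genes held counts in set 1 only. Over 153 M counts in all 18 set 1 libraries and 20.1 M in the 8 of set 2, 30 genes had at least 300 counts in set 1 and 0 in set 2, and 4 had at least 100 in set 2 and 0 in set 1, limits that were set after seeing the data. Gpc3, a glypican of the cell surface, had 615 counts spread over 14 set 1 libraries, and the predicted gene Gm6297 had 698 over 16. Gzma, a protease of cytotoxic lymphocytes, had 452 counts in 4 set 1 libraries. The 4 set 2 genes are mKIAA0217, Zfp36, AK038985 and AK146150, the last in 1 library.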
